A study of Mus musculus with 12 samples.

Results

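The genes of fatty acid oxidation and ketone metabolism were followed in white adipocytes isolated from epididymal fat of lean male C57/BL6J mice (eWAs). They are 33 genes named by their symbols in a table of read counts for 20295 genes, and all 33 were found there and passed the filter on low counts, as did 13543 genes in all. The adipocytes had been freed by collagenase, collected by floatation and cultured for 2 days in a hydrogel. The 12 libraries form 4 groups of 3, which are DMSO (vehicle), 3 h of isoproterenol, an agonist of β-adrenergic receptors (ISO), lipase inhibitors that block ATGL and HSL (Lip), and these inhibitors followed by the agonist (Lip+ISO). The labels name no genetic change in any group. Lip and Lip+ISO share the inhibitors Atglistatin and CAY10499, which per the study's methods were added 1 h ahead. The comparisons ask whether an agonist that releases fatty acids changes the genes that burn them, and whether this depends on active lipases.

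Fatty acids enter mitochondria as acylcarnitines through the carnitine shuttle, whose outer enzyme CPT1 is inhibited by malonyl-CoA. Inside, acyl-CoA dehydrogenases and the enzymes of the β-oxidation cycle shorten the chain and pass electrons to the electron transfer flavoprotein. Peroxisomes shorten very long and branched chains with oxidases of their own. Ketone bodies are made from acetyl-CoA mainly in liver and are used elsewhere through OXCT1. White adipocytes release most of the fatty acids they mobilize and oxidize comparatively few.

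Libraries held 22632220 to 43707557 counts, and the 33 genes took 0.592% to 0.752% of them. Summed over 9 adipocyte markers, levels ran from 23004 to 35988 CPM (counts relative to library size, scaled here by TMM, the trimmed mean of M-values), and Adipoq, the gene of adiponectin, lay between 1829 and 3594 CPM. Markers of other cells were lower but moved with ISO. The sum over 8 macrophage markers was 48.8 to 63.8 CPM in vehicle and 106 to 158 in ISO, and 51.9 to 58.6 in Lip and 67.1 to 117 in Lip+ISO. For 7 fibroblast and progenitor markers it was 316 to 560.0 in vehicle and 625 to 832 in ISO, and 436 to 446 in Lip and 382 to 524 in Lip+ISO. For 7 endothelial markers it was 90.8 to 173 in vehicle, 160.1 to 320.5 in ISO, 47.8 to 159 in Lip and 68.2 to 203 in Lip+ISO. For 5 mesothelial markers it was 21.0 to 46.8 in vehicle, 55.4 to 65.9 in ISO, 12.8 to 54.7 in Lip and 37.3 to 46.2 in Lip+ISO, and 5 epididymis markers summed to at most 0.477 CPM in any library. Against vehicle, 6 of 7 tested macrophage, 3 of 7 fibroblast, 0 of 7 endothelial and 1 of 5 mesothelial genes rose in ISO, and 3 of 9 adipocyte genes fell. Against Lip, 3, 0, 0 and 1 of these rose in Lip+ISO, and 3 adipocyte genes fell. The call used is given with the first comparison. Their part in the changes described here was not tested, and fewer cells of a type and less RNA per cell cannot be told apart in these cultures.

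The promoters of the genes with the clearest changes are shown to place their sequence beside their values. They are RefSeq windows of 300 bases (GRCm38.p6), from 250 bases before to 50 after an annotated start, and 26 of the 33 genes had 27 such windows. Acox3 lies on the plus strand at chr5:35582784-35583083 and Cpt1a on the plus strand at chr19:3323051-3323350. Capitals mark TGACG in Acox3, the short form of the cAMP response element, at position -83 from the start, and in Cpt1a the reverse complement of AGGTCA, the hexamer bound by many nuclear receptors, at position -94.
Acox3: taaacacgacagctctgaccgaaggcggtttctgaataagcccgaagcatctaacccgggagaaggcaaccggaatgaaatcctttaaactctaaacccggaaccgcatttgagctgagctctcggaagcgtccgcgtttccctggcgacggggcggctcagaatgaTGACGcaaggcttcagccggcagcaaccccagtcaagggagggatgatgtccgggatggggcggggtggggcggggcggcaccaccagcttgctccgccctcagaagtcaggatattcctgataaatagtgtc
Cpt1a: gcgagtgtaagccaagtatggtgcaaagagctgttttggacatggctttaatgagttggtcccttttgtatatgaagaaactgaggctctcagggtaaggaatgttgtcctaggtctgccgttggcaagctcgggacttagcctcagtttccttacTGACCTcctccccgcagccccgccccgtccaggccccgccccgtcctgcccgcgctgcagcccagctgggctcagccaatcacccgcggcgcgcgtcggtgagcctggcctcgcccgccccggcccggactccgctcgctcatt

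Such letters are common and say nothing of binding. On either strand, TGACG was found in 20.8% of 32851 mouse promoters and in 8 of the 27 windows (Acad10, Acad11, Acadm, Acadsb, Acox3, Ehhadh, Etfa and Etfdh), and AGGTCA in 16.3% of all promoters and in 4 windows (Acadm, Acadvl, Cpt1a and Echs1). The full element TGACGTCA, which contains TGACG, was found in 1.79% of all promoters. The direct repeat AGGTCANAGGTCA was found in 0.0396% and the element TCAAGGTCA in 0.423%, and both of these contain AGGTCA. None of the 3 longer motifs was in the 27 windows, and the 2 windows of Bdh1 held none of the 5 motifs.

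Levels between genes were compared as CPM per kb of counted exon length. In vehicle, Etfb, the smaller subunit of the electron transfer flavoprotein, was the highest at 425 ± 40.2 CPM per kb (SD, n = 3). It was followed by Hadh, the short-chain hydroxyacyl-CoA dehydrogenase, at 239 ± 25.7, and Ech1, a dienoyl-CoA isomerase, at 225 ± 26.8, which did not differ beyond their spread. The peroxisomal Hsd17b4 at 206 ± 19.0 and the ketone-using Oxct1 at 193 ± 20.1 lay close behind. At the other end were Acad10 at 5.93 ± 0.492, Cpt1b at 3.64 ± 1.75 and Bdh1 at 0.238 ± 0.0894. In the plot of levels per kb, the ketone genes Oxct1 and Bdh1 stand near opposite ends and Acat1, at 37.7, lies between them.

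**Figure D1:**
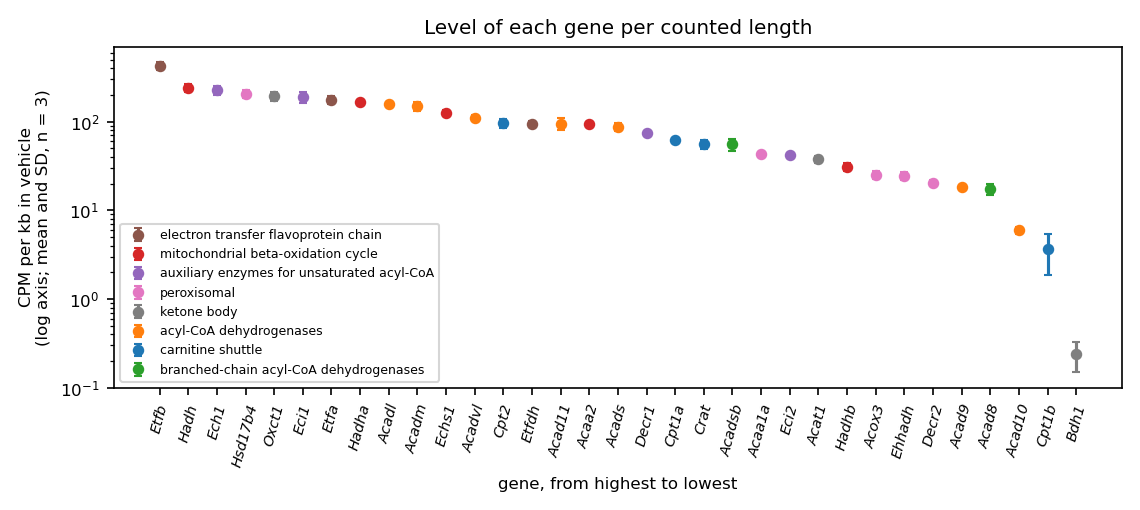
Level of each of the 33 genes in vehicle as CPM per kb of counted length (log axis), as the mean and SD of 3 libraries, ordered from highest to lowest and colored by role. Etfb stands highest at 425 CPM per kb and Bdh1 lowest at 0.238.

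Hadha and Hadhb, which encode the α and β subunits of the mitochondrial trifunctional protein, are a pair that starts back to back. Their annotated starts are 273 bases apart on opposite strands, and the 300-base windows of both genes share 228 bases, shown in capitals for Hadha (GRCm38.p6, minus strand, chr5:30154931-30155230).
Hadha: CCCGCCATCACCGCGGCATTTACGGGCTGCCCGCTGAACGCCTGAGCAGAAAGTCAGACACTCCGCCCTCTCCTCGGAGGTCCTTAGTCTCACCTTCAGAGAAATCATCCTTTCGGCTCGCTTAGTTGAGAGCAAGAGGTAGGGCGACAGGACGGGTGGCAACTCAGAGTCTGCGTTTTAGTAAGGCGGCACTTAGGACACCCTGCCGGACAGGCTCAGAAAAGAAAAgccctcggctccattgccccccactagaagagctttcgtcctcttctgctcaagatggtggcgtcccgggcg
Per kb, the level of Hadha was 4.79 to 5.99 times that of Hadhb over the 12 libraries, with a median of 5.44. The span of Hadha overlaps that of Gareml in the table, so part of its reads is uncertain. In no comparison did either subunit pass the test, and the ratio varied little between libraries.

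To ask how the agonist alone acts on these genes, ISO was compared with vehicle. Most of the 33 genes lay slightly below vehicle, and 3 acyl-CoA dehydrogenase genes fell: Acad8, Acad9 and Acad11. Calls were made where the adjusted p reached 0.05 or less (edgeR quasi-likelihood test, Benjamini-Hochberg adjustment over all tested genes), at any fold change. None was called higher (0 of 33, against 12.3% of all tested genes) and 3 lower (against 13.9%). The count called lower depended on the fit, and with library totals alone it was 10 (against 17.2%). The median of the 33 genes was -0.16 on the log2 scale, against 0.00 over all tested genes, and 27 of the 33 values were negative. Before adjustment, 10 genes had p under 0.05. The DESeq2 Wald test called 2 higher (against 10.7% of all genes with counts) and 5 lower (against 10.5%). For 25 of the 33 genes the 95% interval of the fold change lay within 1.5-fold in either direction.

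A block on the replicate number gave 2 higher genes (Cpt1a and Bdh1, against 18.8% of tested genes) and 8 lower (Ehhadh, Acad8, Acad9, Acad10, Acad11, Acads, Eci1 and Hsd17b4, against 19.6%). The block takes equal numbers as libraries of the same experiment, which the labels do not state. The count of 3 lower genes also hung on single libraries. It was 0 without vehicle replicate 1 or without replicate 3 of every group, and 1 without vehicle replicate 3, ISO replicate 2, ISO replicate 3 or replicate 2 of every group. It was 5 without vehicle replicate 2 or Lip+ISO replicate 1, 6 without Lip+ISO replicate 3 or replicate 1 of every group, and 11 without ISO replicate 1. Of all tested genes, 6.16% to 15.2% were called lower over such refits, and 13.1% without ISO replicate 1. In the color map of all libraries, ISO replicate 1 stands nearer to vehicle than the other two ISO libraries for most dehydrogenases.

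**Figure D2:**
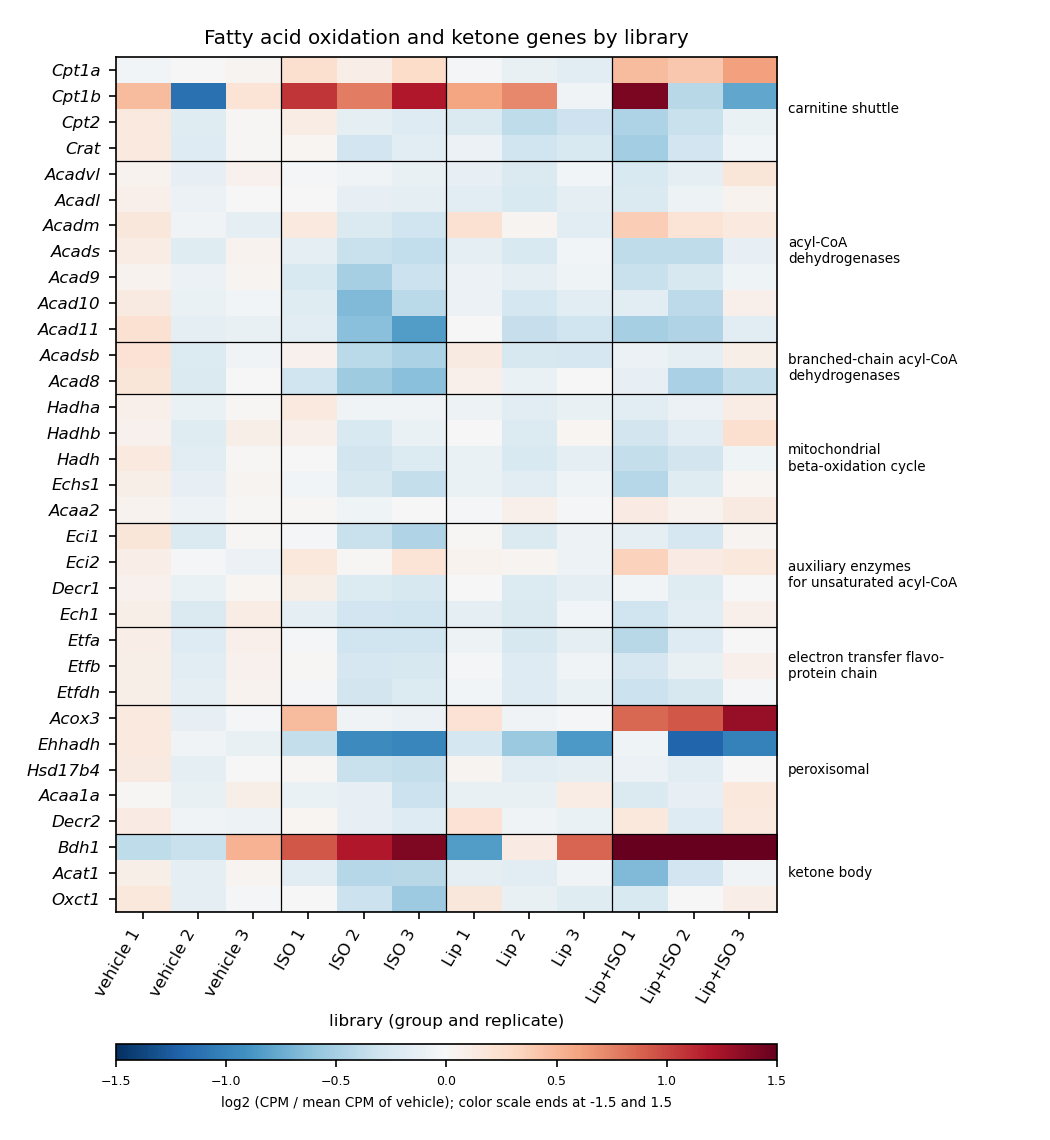
Level of each gene in each of the 12 libraries as log2 of its CPM over the mean CPM of the 3 vehicle libraries, with genes in rows grouped by role and libraries in columns. Acox3 and Bdh1 are high in all Lip+ISO libraries and Ehhadh is low in ISO replicates 2 and 3, while most mitochondrial rows stay pale.

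When lipases were inhibited, the agonist raised 3 genes, each at a different step: Cpt1a at the mitochondrial entry, Acox3 in the peroxisome and Bdh1 of the ketone route. These 3 of 33 compare with 11.5% of all tested genes that rose in this contrast, and none was called lower (0 of 33, against 15.8%). The DESeq2 Wald test called 3 higher (against 10.2% of all genes with counts) and 0 lower (against 11.2%), and 5 genes had an unadjusted p under 0.05. Their median was 0.00 on the log2 scale, as over all tested genes, and 28 intervals lay within 1.5-fold. The replicate block gave 5 higher genes, namely these 3, Acadm (0.20 ± 0.06 SE, edgeR adjusted p = 0.0268) and Eci2 (0.20 ± 0.07, 0.0457), against 15.5% of tested genes, and Acad8 was called lower (-0.31 ± 0.07, 0.00558), against 20.1%. With library totals alone, which moved the median of all genes to -0.12, 3 were called higher (against 7.89% of tested genes) and 3 lower (Acad8, Acad9 and Acads, against 21.9%).

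**Figure D3:**
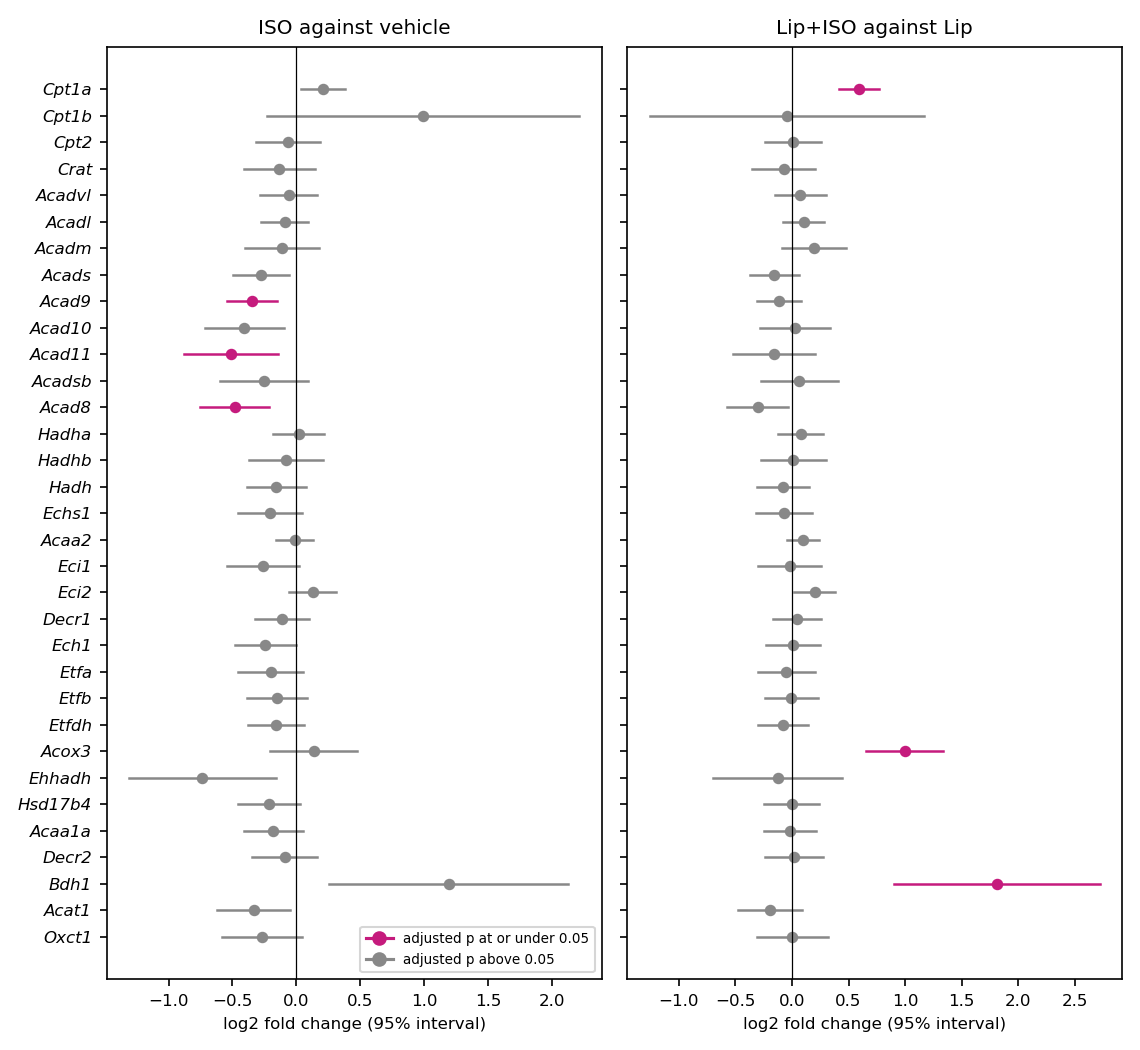
Log2 fold change of the 33 genes with its 95% interval for ISO against vehicle (left) and Lip+ISO against Lip (right), in the order of their roles. Pink marks genes with an adjusted p at or under 0.05, which are 3 on the negative side at left and 3 on the positive side at right.

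Inhibitors without the agonist left no called gene among the 33. Lip against vehicle had 0 higher (0.00738% of tested genes) and 0 lower (0.0443%) in edgeR, and 1 gene, Cpt2, had an unadjusted p under 0.05. In DESeq2 there were also 0 higher (0.102% of all genes with counts) and 0 lower (0.177%). The median log2 fold change was -0.11, against 0.00 over all tested genes, and 26 of the 33 values were negative. For 30 genes the 95% interval lay within 1.5-fold, and Cpt1b, Ehhadh and Bdh1 were the exceptions. Lip+ISO against ISO, which shows what the inhibitors did in the presence of the agonist, had 2 genes higher (4.36% of tested genes), Acox3 and Cpt1a, and 0 lower (4.59%). The DESeq2 Wald test gave 2 and 0 as well (4.74% and 4.47% of all genes with counts), and 3 genes had an unadjusted p under 0.05. With the replicate block, Acadm (0.36 ± 0.06 SE, edgeR adjusted p = 0.00206) was called higher besides Acox3 and Cpt1a, against 8.48% of tested genes. None was called lower with the block (against 10.8%).

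Whether the response to ISO differed with the inhibitors was tested by the interaction, the fold change of Lip+ISO over Lip minus that of ISO over vehicle on the log2 scale. No gene of the 33 was called higher (0, against 0.901% of tested genes) or lower (0, against 0.724%) in edgeR, and 2 had an unadjusted p under 0.05. The DESeq2 Wald test called 2 higher (Acox3 and Cpt1a, against 1.7% of all genes with counts). With the replicate block, Acox3 (edgeR adjusted p = 0.0204) and Cpt1a (0.0411) were called higher (against 3.15% of tested genes) and 0 lower (against 3.48%). The interaction was positive for 32 of the 33 genes with a median of 0.15, whereas 47.3% of all tested genes were positive and their median was -0.02. Without replicate 3 of every group, 20 of the 33 were positive. The exception with all libraries was Cpt1b. This lean was not particular to the set. Of 52 other tested genes of the pathway 44 were positive (median 0.16), among them all 17 of branched-chain and propionyl-CoA breakdown (0.14). Adipocyte markers had 6 of 9 positive (median 0.21), macrophage markers 0 of 7 (-0.48) and fibroblast and progenitor markers 1 of 7 (-0.73). Many of the 33 genes moved together over the libraries, so these are not counts of independent genes.

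Cpt1a (NM_013495, mm9 chromosome 19, 3323301 to 3385733, plus strand) encodes the liver form of CPT1, the enzyme that commits long-chain fatty acids to mitochondrial oxidation. Its level was 259.5, 268 and 276 CPM in the vehicle libraries and 316, 288 and 325 in ISO. It was 265, 248 and 237 in Lip and 371, 353 and 409 in Lip+ISO. Every Lip+ISO library lay above every library of the other groups, and the ISO libraries lay above those of vehicle. Group means were 268 ± 8.47, 309 ± 19.3, 250.1 ± 14.1 and 378 ± 28.4 CPM (SD, n = 3) in vehicle, ISO, Lip and Lip+ISO. The log2 fold change was 0.59 ± 0.08 (SE) for Lip+ISO against Lip, 1.51-fold (edgeR adjusted p = 0.000116), and it passed in all of 15 refits, each without 1 library or 1 replicate number. For ISO against vehicle it was 0.21 ± 0.08 (edgeR adjusted p = 0.075, and 0.0367 with the replicate block). Lip+ISO lay above ISO by 0.29 ± 0.08 (edgeR adjusted p = 0.0429, and 0.0143 with the replicate block). In the refits, which had no block, this call held without Lip replicate 1 or Lip+ISO replicate 2. It was lost in the other 13 (0.24 to 0.34, adjusted p of up to 0.271). The interaction of 0.39 ± 0.11 had an edgeR adjusted p of 0.128, and of 0.0411 with the replicate block.

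Cpt1b (NM_009948, mm9 chromosome 15, 89246836 to 89256293, minus strand) encodes the muscle form of CPT1. Only 150 of its 3372 annotated exon bases (4.45%) were counted in the table, and its counts were 24, 6 and 16 in vehicle, 26, 41 and 29 in ISO, 24, 28 and 19 in Lip and 36, 11 and 8 in Lip+ISO. Scaled to library size, the ISO libraries (0.927 to 1.25 CPM) lay above those of vehicle (0.252 to 0.758) and Lip (0.526 to 0.901). The Lip+ISO libraries overlapped every other group. Per kb, Cpt1b made up 5.49% ± 2.60 (SD, n = 3) of Cpt1a and Cpt1b together in vehicle, 9.28% ± 0.765 in ISO, 7.87% ± 1.76 in Lip and 5.16% ± 4.31 in Lip+ISO. In 2-sided exact permutation tests the differences had p = 0.1 for ISO against vehicle, 0.4 for Lip+ISO against Lip, 0.3 for Lip against vehicle and 0.4 for Lip+ISO against ISO. Adjusted over these 4 comparisons all were 0.4, and 3 against 3 libraries cannot give a p below 0.1. With so few counted bases, the level of the muscle form could not be set beside that of the liver form with confidence.

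Cpt2, the inner enzyme of the shuttle (NM_009949, mm9 chromosome 4, 107576587 to 107596194, minus strand), was at 252, 200.03 and 229 CPM in vehicle, 245, 206 and 199 in ISO, 195, 174 and 183 in Lip and 164, 179.8 and 212 in Lip+ISO. The Lip libraries all lay below vehicle, yet the log2 fold change of -0.30 ± 0.12 did not pass (edgeR adjusted p = 0.913). Crat, carnitine acetyltransferase, which buffers short acyl groups, was at 266, 210.0 and 244 CPM in vehicle, 246, 196 and 216 in ISO, 226, 196 and 205 in Lip and 167, 197 and 233 in Lip+ISO. These ranges overlap, and no comparison of Crat passed (log2 fold changes of -0.20 to -0.07). The span of Crat overlaps Dolpp1 in the table, so its reads are uncertain. Of the shuttle enzymes, Cpt1a was the only gene called in any of the 5 tests.

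The 7 acyl-CoA dehydrogenases of straight chains and their relatives all had negative values in ISO against vehicle, with a median of -0.28 and a range of -0.51 to -0.06. Acad9 (NM_172678, mm9 chromosome 3, 35964922 to 35991779, plus strand), which also serves in the assembly of respiratory complex I, was at 74.6, 67.6 and 74.003 CPM in vehicle and 61.6, 51.1 and 57.8 in ISO. In Lip it was at 68.0, 65.4 and 69.1 CPM and in Lip+ISO at 57.1, 60.8 and 69.0. All ISO libraries lay below all vehicle libraries, while Lip+ISO and Lip overlapped. Its log2 fold change was -0.34 ± 0.09 in ISO against vehicle (edgeR adjusted p = 0.0139), and it differed by -0.12 ± 0.09 (adjusted p = 0.398) in Lip+ISO against Lip. The call was lost without vehicle replicate 1, vehicle replicate 3, ISO replicate 2, or replicate 2 or 3 of every group, with an adjusted p of up to 0.11. These refits had no block. With the replicate block and all libraries, Acad9 had -0.35 ± 0.07 (edgeR adjusted p = 0.00352).

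Acad11 (NM_175324, mm9 chromosome 9, 103966033 to 104029976, plus strand), a less studied member of the family, was at 366, 281 and 287 CPM in vehicle and 279, 201 and 175 in ISO. It was at 312, 245 and 252 in Lip and at 221, 228 and 276 in Lip+ISO. The highest ISO library lay just under the lowest vehicle library. The log2 fold change was -0.51 ± 0.17 (edgeR adjusted p = 0.0401), and the adjusted p rose above 0.05 in 7 of the 15 refits (up to 0.182). These were the refits without vehicle replicate 1, vehicle replicate 3, ISO replicate 2, ISO replicate 3, Lip+ISO replicate 2, or replicate 2 or 3 of every group. With the replicate block and all libraries, Acad11 had -0.52 ± 0.13 (edgeR adjusted p = 0.00899). Its span overlaps Ackr4 in the table, so part of its reads is uncertain. Acad10 and Acads just missed the threshold in ISO, at -0.41 ± 0.14 (adjusted p = 0.0525) and -0.28 ± 0.10 (adjusted p = 0.0583), and passed it with the replicate block, at -0.41 (0.00913) and -0.27 (0.0202). The classical long- and medium-chain enzymes Acadvl, Acadl and Acadm had values of -0.06, -0.09 and -0.11 with adjusted p of 0.45 to 0.702.

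Of the 2 dehydrogenases of branched-chain amino acid breakdown, Acad8 fell in ISO and Acadsb did not pass. Acad8 (NM_025862, mm9 chromosome 9, 26781726 to 26807134, minus strand) encodes isobutyryl-CoA dehydrogenase of valine breakdown. Its level was 56.6, 43.0 and 50.001 CPM in vehicle and 40.4, 34.4 and 32.3 in ISO, then 52.5, 46.5 and 49.7 in Lip and 45.8, 35.6 and 39.0 in Lip+ISO. The libraries with the agonist lay below those without it in both settings, with no overlap in either. The log2 fold change was -0.48 ± 0.12 for ISO against vehicle (1.40-fold lower, edgeR adjusted p = 0.0124) and -0.30 ± 0.12 for Lip+ISO against Lip (adjusted p = 0.0898). The ISO call was lost without vehicle replicate 1, ISO replicate 3 or replicate 3 of every group, with an adjusted p of up to 0.157. With the replicate block and all libraries, Acad8 had -0.48 ± 0.07 in ISO (edgeR adjusted p = 0.000394). Acadsb, the short/branched-chain dehydrogenase of isoleucine breakdown, had -0.25 ± 0.16 in ISO (adjusted p = 0.253).

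For the 5 genes of the mitochondrial cycle (Hadha, Hadhb, Hadh, Echs1 and Acaa2), 0 were called in any of the 5 tests, and their log2 fold changes ran from -0.21 to 0.02 in ISO against vehicle and from -0.08 to 0.10 in Lip+ISO against Lip. Acaa2, the last thiolase of the cycle, had the narrowest interval in ISO, from -0.16 to 0.13 on the log2 scale. The 4 auxiliary enzymes that handle double bonds (Eci1, Eci2, Decr1 and Ech1) ran from -0.26 to 0.13 in ISO and from -0.02 to 0.20 with the inhibitors. Eci1 and the peroxisomal Hsd17b4 did not pass in ISO (adjusted p = 0.157 and 0.182), but passed with the replicate block, at -0.26 (edgeR adjusted p = 0.0482) and -0.22 (0.0468), and without ISO replicate 1, at -0.40 (0.0426) and -0.35 (0.0273). The 3 genes of the electron transfer flavoprotein chain (Etfa, Etfb and Etfdh) moved closely together, from -0.20 to -0.15 in ISO and from -0.08 to 0.00 in Lip+ISO against Lip, and none was called.

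Among the 5 peroxisomal genes, Acox3 rose with the agonist when lipases were inhibited. Acox3 (NM_030721, mm9 chromosome 5, 35925709 to 35956450, plus strand) encodes an acyl-CoA oxidase of branched chains, the first step of the peroxisomal route. Its level was 103, 85.2 and 91.4 CPM in vehicle, 129.7, 89.9 and 87.7 in ISO and 108, 89.6 and 91.6 in Lip. In Lip+ISO it was 169, 178 and 229.7 CPM, so that each of these libraries exceeded all 9 others, while the 3 remaining groups overlapped. Group means were 93.1 ± 8.94, 102 ± 23.7, 96.3 ± 10.0 and 192 ± 32.8 CPM (SD, n = 3) in vehicle, ISO, Lip and Lip+ISO. The log2 fold change was 1.00 ± 0.16 for Lip+ISO against Lip (1.995-fold, edgeR adjusted p = 0.000397) and passed in all 15 refits. It was 0.91 ± 0.16 for Lip+ISO against ISO (adjusted p = 0.00314), a call lost without replicate 2 or without replicate 3 of every group (adjusted p of up to 0.106, log2 fold change of at least 0.66). For ISO against vehicle it was 0.14 ± 0.16 (95% interval -0.21 to 0.48, adjusted p = 0.557), and -0.073 without ISO replicate 1. The interaction was 0.86 ± 0.22 (adjusted p = 0.0811, and 0.0204 with the replicate block), and it passed without ISO replicate 1 or all libraries numbered 1 (range over the refits 0.59 to 1.18).

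Ehhadh (NM_023737, mm9 chromosome 16, 21761358 to 21787907, minus strand), a bifunctional enzyme of peroxisomal β-oxidation, did not follow Acox3. It was at 82.1, 71.4 and 68.3 CPM in vehicle, 57.8, 38.1 and 37.6 in ISO, 61.6, 50.2 and 40.8 in Lip and 70.8, 32.4 and 36.7 in Lip+ISO. Vehicle lay above every ISO library and every Lip library, and Lip+ISO replicate 1 stood apart from the other two of its group. The log2 fold change was -0.73 ± 0.26 in ISO against vehicle (edgeR adjusted p = 0.0571), and with the replicate block Ehhadh fell by 0.76 ± 0.14 (adjusted p = 0.0013). It was -0.54 ± 0.26 in Lip against vehicle (adjusted p = 1). In Lip+ISO against Lip it was -0.12 ± 0.26 (adjusted p = 0.784). Hsd17b4, the other bifunctional enzyme, Acaa1a, the peroxisomal thiolase, and Decr2, a dienoyl-CoA reductase, ran from -0.21 to -0.09 in ISO and from -0.02 to 0.02 in Lip+ISO against Lip. Reads of Acaa1a can be shared with its paralog Acaa1b, so its level is uncertain.

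**Figure D4:**
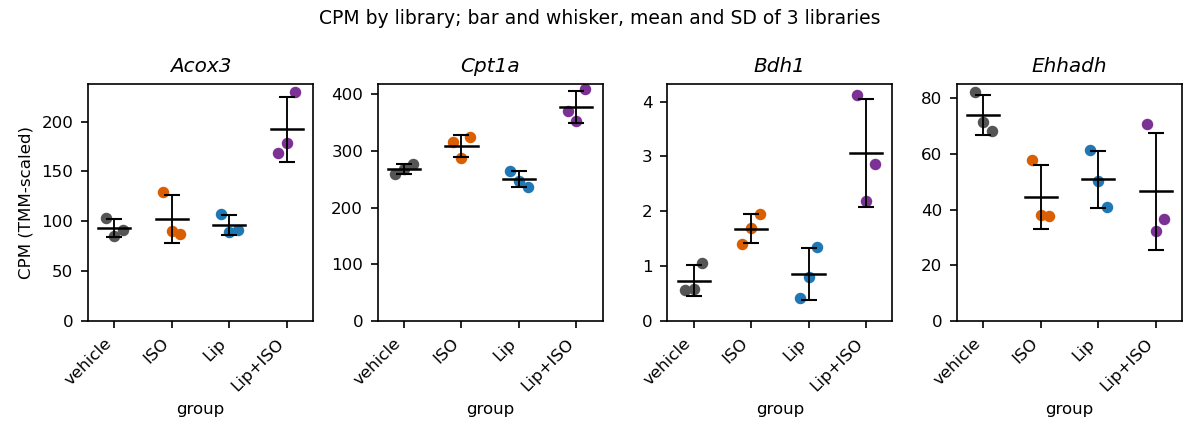
CPM of Acox3, Cpt1a, Bdh1 and Ehhadh in each library, with the mean (bar) and SD (whisker) of the 3 libraries of each group; axes start at 0. The 3 Lip+ISO libraries are the highest for Acox3, Cpt1a and Bdh1, and the 3 vehicle libraries of Ehhadh lie above all those of ISO and Lip.

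Of the 3 ketone genes, Bdh1 rose and the other two did not. Bdh1 (NM_175177, mm9 chromosome 16, 31422383 to 31458987, plus strand) encodes the dehydrogenase that interconverts acetoacetate and β-hydroxybutyrate. It was barely expressed, with 18, 14 and 27 counts in vehicle, 32, 75 and 45 in ISO, 12, 25 and 49 in Lip and 102, 59 and 72 in Lip+ISO. Scaled, these were 0.568, 0.587 and 1.06 CPM in vehicle, 1.41, 1.70 and 1.95 in ISO, 0.412, 0.805 and 1.36 in Lip and 4.12, 2.19 and 2.86 in Lip+ISO. The libraries with the agonist lay above those without it, and all Lip+ISO libraries lay above all ISO libraries. Its log2 fold change was 1.81 ± 0.42 for Lip+ISO against Lip (3.51-fold, edgeR adjusted p = 0.00584), the largest of the 33 genes in that test. This call was lost without replicate 1 and without replicate 2 of every group (adjusted p of up to 0.0825, log2 fold change of 1.23 to 2.36 over the 15 refits). For ISO against vehicle it was 1.19 ± 0.43 (adjusted p = 0.0589, and 0.0303 with the replicate block). Lip+ISO against ISO did not pass, at 0.86 ± 0.40 (edgeR adjusted p = 0.22), nor did the interaction, at 0.62 ± 0.60 (adjusted p = 0.706).

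Acat1, the mitochondrial acetoacetyl-CoA thiolase (NM_144784, mm9 chromosome 9, 53388627 to 53418455, minus strand), was at 135, 115 and 131 CPM in vehicle, 113, 94.2 and 95.3 in ISO, 116, 113 and 122 in Lip and 80.5, 104 and 123 in Lip+ISO. The ISO libraries lay just below those of vehicle, at -0.33 ± 0.13 on the log2 scale (edgeR adjusted p = 0.0785). Oxct1, the transferase with which tissues use ketone bodies (NM_024188, mm9 chromosome 15, 3976428 to 4105344, plus strand), was at 658, 536 and 582 CPM in vehicle and 593, 475 and 405 in ISO. It was at 663, 547 and 522 in Lip and 507, 594 and 635 in Lip+ISO, so the groups overlapped. The log2 fold change of Oxct1 was -0.27 ± 0.14 in ISO (adjusted p = 0.187) and 0.00 ± 0.14 in Lip+ISO against Lip (adjusted p = 0.991).

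Genes whose libraries did not overlap between groups were counted, with the share over all tested genes in brackets. All ISO libraries exceeded all vehicle libraries for 3 of the 33 genes (20.7% of tested genes) and lay below them for 6 (22.6%). For Lip+ISO against Lip these were 4 genes (17.2%) and 1 gene (22%), for Lip against vehicle 0 (5.19%) and 3 (5.21%), and for Lip+ISO against ISO 5 (11.9%) and 0 (13.5%). Over the 12 libraries, the correlation of each gene with the mean of the other 32 standardised genes was described without a test. It was highest for Eci1 (r = 0.94) and Etfb (0.94), and Cpt1a (0.00), Eci2 (-0.13), Cpt1b (-0.27) and Bdh1 (-0.29) did not follow the others. The genes outside the set most like its mean were Trap1 (r = 0.97), Pcx (0.95), Ldhd (0.95), Hibadh (0.95) and Isoc1 (0.95), which share libraries, scaling and depth with it.

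The steps around these enzymes were read from 56 other genes of the pathway, of which 52 could be tested. In ISO against vehicle 3 of them rose (12.3% of all tested genes did) and 8 fell (13.9%), in Lip+ISO against Lip 4 rose (11.5%) and 7 fell (15.8%), in Lip against vehicle 0 were called in edgeR with 4 at an unadjusted p under 0.05, and in Lip+ISO against ISO 2 rose (4.36%) and 1 fell (4.59%). With the replicate block 16 fell in ISO (19.6% of all tested genes) and 8 rose in Lip+ISO against Lip (15.5%). Acsl3 and Acsl4, long-chain acyl-CoA synthetases that activate fatty acids, rose in both. The synthetase genes Acsl1 (0.28 and 0.37) and Acsl5 (0.19 and 0.28) did not pass in either without the block. Acsl1 and Acsl5 were named after their values had been seen. Acsl3 was at 39.6, 38.2 and 50.8 CPM in vehicle, 143, 103 and 119 in ISO, 45.1, 41.8 and 50.5 in Lip and 156, 137 and 144 in Lip+ISO. Acsl4 was at 99.4, 103 and 108 CPM in vehicle, 245.1, 245 and 306 in ISO, 99.5, 96.5 and 98.3 in Lip and 309, 338 and 433 in Lip+ISO. For both genes the libraries with the agonist lay far above those without it. Acsl3 rose by 1.51 ± 0.14 and 1.67 ± 0.14 on the log2 scale in ISO and in Lip+ISO against Lip (edgeR adjusted p = 6.31e-06 and 1.42e-06). Acsl4 rose by 1.36 ± 0.12 and 1.88 ± 0.12 (adjusted p = 6.37e-06 and 2.28e-07), and by 0.44 ± 0.12 in Lip+ISO against ISO (adjusted p = 0.0386), a call that was lost in 10 of the 15 refits (0.30 to 0.55, adjusted p of up to 0.265): those without any 1 vehicle library, ISO replicate 1 or 2, Lip replicate 2 or 3, Lip+ISO replicate 3, or replicate 1 or 2 of every group. Cpt1c, the CPT1 form of neurons, rose in ISO by 1.37 ± 0.30 (adjusted p = 0.00459) from 3.06 to 5.79 CPM in the vehicle libraries to 9.82 to 11.98 in ISO. With the inhibitors it did not pass, at 0.39 ± 0.29 in Lip+ISO against Lip (edgeR adjusted p = 0.375). The Lip+ISO libraries were at 4.45 to 7.67 CPM, and Lip+ISO against ISO had -0.79 ± 0.29 (adjusted p = 0.117).

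The enzymes that set malonyl-CoA, the inhibitor of CPT1, were lower with the agonist. Acacb, the acetyl-CoA carboxylase of the mitochondrial surface, was at 222, 197 and 232 CPM in vehicle and 103, 89.6 and 90.0 in ISO, and at 222, 180.0 and 210.1 in Lip and 109, 114 and 142 in Lip+ISO. It fell by 1.21 ± 0.12 in ISO (edgeR adjusted p = 1.12e-05) and by 0.75 ± 0.12 in Lip+ISO against Lip (adjusted p = 0.00032), with no overlap of libraries. All 3 genes of this list fell in ISO, the other two being Acaca (by 0.61 ± 0.15, adjusted p = 0.0103), the cytosolic carboxylase, and Mlycd (by 0.80 ± 0.17, adjusted p = 0.0038), which removes malonyl-CoA. These 2 genes were named after their values had been seen. With the inhibitors Mlycd also fell (by 0.61 ± 0.17, adjusted p = 0.0146), while Acaca had -0.35 ± 0.15 (adjusted p = 0.11). In ISO the call of Acaca was lost without ISO replicate 2 or all libraries numbered 2, and that of Mlycd without the latter (adjusted p of up to 0.0989 and 0.0561). With the inhibitors that of Mlycd was lost without Lip replicate 3, Lip+ISO replicate 2, or replicate 1 or 2 of every group (up to 0.137).

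Aacs, the cytosolic acetoacetyl-CoA synthetase that routes ketone bodies into lipids, was at 379, 334 and 367 CPM in vehicle and 203, 188 and 162 in ISO, and at 403, 331 and 375 in Lip and 213, 206 and 237 in Lip+ISO. It fell by 0.96 ± 0.10 in ISO (edgeR adjusted p = 2.6e-05) and by 0.76 ± 0.10 in Lip+ISO against Lip (adjusted p = 0.000119). Mcat, of mitochondrial fatty acid synthesis, fell in both comparisons, by 0.66 ± 0.10 in ISO (adjusted p = 0.000522) and by 0.75 ± 0.10 in Lip+ISO against Lip (adjusted p = 0.000119). In Lip+ISO against ISO, Slc22a5, the carnitine importer, fell by 0.65 ± 0.14 (adjusted p = 0.0117) and Hacl1, the lyase of α-oxidation in peroxisomes, rose by 0.61 ± 0.13 (adjusted p = 0.0105). Against Lip, Lip+ISO had a fall of Slc22a5 by 0.62 ± 0.14 (adjusted p = 0.00507) and a rise of Hacl1 by 0.42 ± 0.13 (adjusted p = 0.0274), whereas in ISO they had -0.37 ± 0.14 and -0.28 ± 0.13 (adjusted p = 0.064 and 0.125, and 0.00731 for Slc22a5 with the replicate block). Slc22a5 was at 56.3, 48.4 and 58.9 CPM in ISO and 40.8, 29.2 and 34.4 in Lip+ISO, and Hacl1 at 94.2, 77.2 and 76.6 and at 101, 132 and 144. Neither gene overlapped between these groups. Both calls against ISO were lost without ISO replicate 3 or all libraries numbered 2 or 3, and that of Hacl1 also without ISO replicate 2 (adjusted p of up to 0.118 for Slc22a5 and 0.202 for Hacl1). Against Lip, that of Hacl1 was lost without Lip replicate 2 or 3, Lip+ISO replicate 2 or 3, or all libraries numbered 2 or 3 (up to 0.307).

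**Figure D5:**
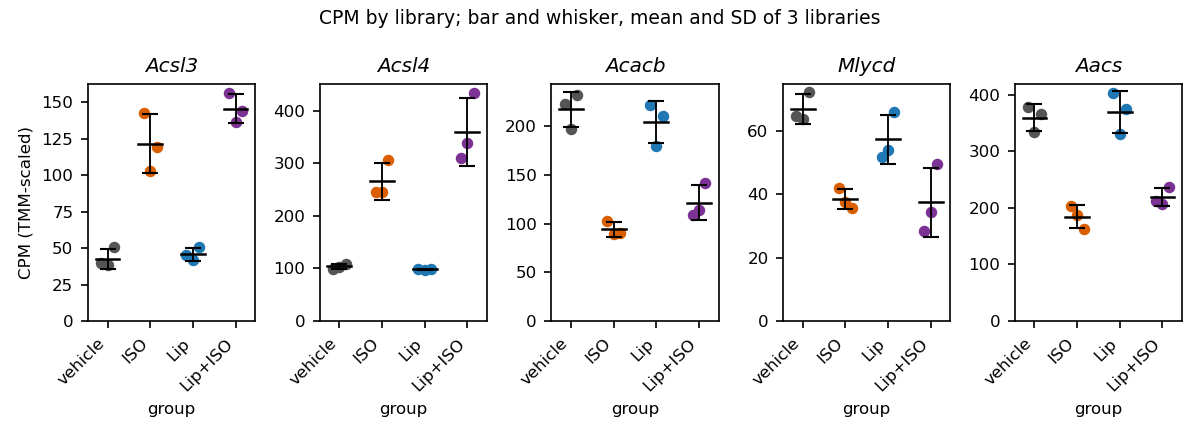
CPM of Acsl3, Acsl4, Acacb, Mlycd and Aacs in each library, with the mean (bar) and SD (whisker) of the 3 libraries of each group; axes start at 0. Acsl3 and Acsl4 are higher, and Acacb, Mlycd and Aacs lower, in the libraries with the agonist than in the matching ones without it.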

How the data were processed

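RNA from 12 cultures of mouse epididymal white adipocytes was sequenced, and samples were grouped and numbered by the sample titles. The authors deposited raw read counts per gene. Per the study's methods they aligned reads to mm9 with STAR 2.4.2a, kept 1 read per position and length with HOMER, and counted RefSeq genes with iRNA-seq. Such a limit and unstated strand use can affect abundant and overlapping genes. The legend for these cells names SR-3420 as the stimulus, whereas titles and text name ISO, which was used here. Gene starts count from 0 and are printed from 1: of 18991 starts matched to an mm9 annotation, 703 were equal as they stand and 10959 after adding 1.

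Counts were fitted in R 4.3.3 with edgeR 4.0.16 (filterByExpr, 13543 genes, TMM scaling, 1 mean per group, all 12 libraries, quasi-likelihood F-test, two-sided), with Benjamini-Hochberg adjustment over tested genes. The script was checked on simulated data. SEs are the log2 fold change over the root of F. Alternatives used DESeq2 1.42.0, RLE scaling, library totals, no filter, only the compared groups, a replicate block, a minimum log2 fold change of 1, and 15 fits leaving out a library or a replicate number. A count of 0 allows up to 3 counts, 0.0686 to 0.133 CPM by library, for counting error only.

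The study describes independent experiments, but labels do not tie cultures to mice, so p-values measure the spread between these cultures. Deviations of same-numbered libraries from group means correlated at 0.0373 to 0.369 (17 of 18 over 0.1) and those of other numbers at -0.329 to 0.0853. Only the pair of ISO replicate 3 and Lip+ISO replicate 3 did not pass 0.1. Deviations within a group cancel by construction, so higher values for the same number force lower ones for other numbers. The range for other numbers is therefore not separate evidence of pairing. A replicate number is taken to pair libraries over all groups, so blocked values are given for the 33 genes where calls changed. They are also given for Acad8, Acad9 and Acad11 in ISO against vehicle. For the pathway genes the blocked fit is given as counts, and as a value for Slc22a5 only.

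The 33 genes and all lists were chosen with earlier results of these data known. By rule, values per library are given for 9 genes of control and end steps and for other called genes of the 33, and of the 56 pathway genes the 5 largest called per comparison are named. Acaca, Mlycd, Acsl1 and Acsl5 stand outside that rule. Marker lists of adipocytes, macrophages, fibroblasts, endothelium, mesothelium and epididymis were summed.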

Additional observations from a re-analysis of the deposited data

How the results depend on the processing

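Results rest on 3 libraries a group. Acox3, Cpt1a and Bdh1 were called in Lip+ISO against Lip under RLE scaling, library totals, no filter, DESeq2, only the compared groups and the block. Brackets give the share over all tested genes in the same fit, or over all genes with counts for DESeq2. No share is given for the minimum fold change. For ISO against vehicle, genes of the 33 called higher were 2 with DESeq2 (10.7%), 1 with only the compared groups (14.1%) and 2 with the replicate block (18.8%). Those called lower were 10 with library totals alone (17.2%), 5 with DESeq2 (10.5%), 5 with only the compared groups (14.8%), 8 with the block (19.6%) and 0 with a minimum log2 fold change of 1. For Lip+ISO against Lip, 5 were called higher with the replicate block (15.5%) and 1 with the minimum fold change, and lower were 3 with library totals alone (21.9%) and 1 with the block (20.1%). For Lip+ISO against ISO, called higher were 1 with library totals alone (3.7%), 1 without the filter (2.69%), 1 with only the compared groups (2.65%) and 0 with the minimum fold change. For the interaction, called higher were 1 with library totals alone (0.834%), 2 with DESeq2 (1.7%) and 2 with the replicate block (3.15%). In Lip+ISO against ISO, where the libraries numbered 3 correlated at only 0.0373, the block called 3 of the 33 higher (Acox3, Cpt1a and Acadm, against 8.48%). It changed no call of the 33 in Lip against vehicle. The cause of these shifts was not tested, except that the minimum fold change removes small changes by its construction.

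For the 52 pathway genes, with the same shares in brackets, called lower in ISO were 16 with library totals alone (17.2%), 16 with the replicate block (19.6%) and 1 with the minimum fold change. In Lip+ISO against Lip, called higher were 2 with library totals (7.89%), 8 with the block (15.5%) and 2 with the minimum, and lower 11 with library totals (21.9%) and 0 with the minimum. In Lip+ISO against ISO, called higher were 4 with DESeq2 (4.74%), 1 with only the compared groups (2.65%), 5 with the block (8.48%) and 0 with the minimum. Called lower were 2 with library totals (4.88%), 3 with the block (10.8%) and 0 with the minimum. For the interaction, called higher were 1 with DESeq2 (1.7%) and 3 with the block (3.15%), and lower 1 with the block (3.48%).

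Over the 15 fits that left libraries out, genes of the 33 called higher and lower ranged from 0 to 1 and from 0 to 11 in ISO against vehicle, from 2 to 3 and from 0 to 1 in Lip+ISO against Lip, from 0 to 4 (higher) in Lip+ISO against ISO and from 0 to 1 (higher) in the interaction. For pathway genes these were 3 to 4 and 5 to 14, 2 to 6 and 4 to 8, 0 to 3 and 0 to 1, and 0 to 1 (higher). Of all tested genes, 6.48% to 13.2% were called higher and 6.16% to 15.2% lower in ISO against vehicle. In Lip+ISO against Lip these shares were 6.87% to 11.1% and 8.58% to 15.6%. Called higher were 1.23% to 4.4% in Lip+ISO against ISO and 0.0443% to 1.29% in the interaction. Values near 0 changed sign. Acox3 ranged from -0.073 to 0.23 in ISO against vehicle and from -0.052 to 0.13 in Lip against vehicle, Bdh1 from -0.27 to 0.58 in Lip against vehicle, and Ehhadh from -0.56 to 0.088 in Lip+ISO against Lip and from -0.36 to 0.30 in Lip+ISO against ISO. Bdh1 and Cpt1b, with at most 102 and 41 counts a library, are the values that depth limits most.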

Other observations

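Of 17 genes of branched-chain amino acid and propionyl-CoA breakdown, 16 had negative values in ISO against vehicle, with a median log2 fold change of -0.25 against 0.00 over all tested genes, and 0 were called (5 had an unadjusted p under 0.05, edgeR). In Lip+ISO against Lip, 13 were negative with a median of -0.07 and 0 were called. These calls are without the replicate block. Adipocyte markers leaned the same way in ISO against vehicle, with 8 of 9 negative and a median of -0.31. Of 14 tested genes of other peroxisomal enzymes and transporters, 2 were called lower in ISO (13.9% of all tested genes were), and 2 higher (11.5%) and 1 lower (15.8%) in Lip+ISO against Lip.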
